A study of Homo sapiens with 12 samples.

Results

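The proteasome and immunoproteasome genes were described in HCT116, a human colorectal carcinoma cell line with an oncogenic RAS allele, and in Hke3 and Hkh-2, derivatives of HCT116 in which that allele was removed by recombination. The list held 41 genes, of which 5 (PSMB8, PSMB9, PSMB10, PSME1 and PSME2) form the immunoproteasome and its activator and 36 the constitutive particle, its other activators and its assembly chaperones. A gene was measured where an Affymetrix probe set carried its symbol and no other. This held for 36 of the 41 genes, with 68 probe sets among 41097 of this kind. RNA came from 4 groups of 3 arrays. The first group was HCT116 control cells given vehicle for 3 days, and the second was HCT116 control cells given 25 ng/ml doxycycline for 3 days. Hke3 and Hkh-2 were cultured without either. The study made its HCT116 cells with inducible vectors against RAS, and the labels do not say which vector the control cells carried. Both control groups kept the oncogenic allele. Hke3 and Hkh-2 each go back to 1 clone, so the removal of the allele, the history of the clone, the vector and the culture conditions cannot be told apart in any difference between HCT116 and a line. Whether a group's 3 arrays stem from separate cultures is not stated, so p-values measure only the spread between these arrays.

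The proteasome degrades ubiquitin-tagged proteins in a barrel built from rings of alpha and beta subunits (the 20S core), which is capped by a regulatory particle with an ATPase ring, a base and a lid (19S). The catalytic beta subunits PSMB5, PSMB6 and PSMB7 can be replaced during assembly by PSMB8, PSMB9 and PSMB10, respectively, which interferon induces and which cut proteins into peptides favoured by MHC class I. PSME1 and PSME2 form PA28, an interferon-inducible activator that opens the core. In the epithelium of the colon the immunoproteasome is known mainly from inflammation.

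Values were deposited as log2 signals, and each gene was represented by its brightest probe set. Of the 36 measured genes, 35 reached a mean of 6 in at least 1 group and were tested among 12852 genes. The lowest group mean of a tested member was 7.04, that of PSMB9 in vehicle-treated HCT116, so no member was tested only through the group in which it was high. The gene left out of the tests was PSMB8. The only probe set of PSME2 also carried the symbol MIR7703, and both of PSMA6 also carried PRORP, so neither gene was measured on its own. PSMC5, PSMD7 and PSMD13 were not analysed here. Arrays of a group correlated at 0.993 to 0.998 over the 41097 probe sets with a single symbol, and array medians lay between 5.80 and 5.86. The second array of vehicle-treated HCT116 (vehicle replicate 2) and the third of Hke3 (Hke3 replicate 3) stood apart from the rest of their groups and deviated together (r = 0.683 across genes, which are not independent replicates). Counts of members called in each comparison of the lines are therefore also given without both arrays. Both were picked from these same values for their deviation. Leaving them out leaves fewer arrays in those groups and lowers the spread, so adjusted p-values without them can be too small. Counts of the other listed genes were taken with all 12 arrays only.

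The start regions of the immunoproteasome genes are shown because those of PSMB8, PSMB10, PSME1 and PSME2 hold letters that interferon-activated factors are known to bind, which the region of PSMB9 and most constitutive members lack. Sequences are from RefSeq (GRCh38.p14), 5' to 3' along the gene, and 36 of the 41 members had a window of 300 bases, from 250 before to 50 after a start. Capitals mark the letters GAAA, any 2 bases and GAAA again, or their reverse complement (TTTC, any 2 bases and TTTC), the core of the interferon-stimulated response element (ISRE), except in PSMB9, where they mark a match to TGACNNNGC, the core of the antioxidant response element (ARE), on the reverse strand. The PSMB5 stretch, from the constitutive gene that PSMB8 replaces, has no capitals because neither of its windows held the ISRE letters.
PSMB8, chr6:32844028-32844147, minus strand: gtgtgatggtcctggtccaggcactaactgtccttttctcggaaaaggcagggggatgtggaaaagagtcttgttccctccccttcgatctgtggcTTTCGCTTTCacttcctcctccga
PSMB10, chr16:67936831-67936950, minus strand: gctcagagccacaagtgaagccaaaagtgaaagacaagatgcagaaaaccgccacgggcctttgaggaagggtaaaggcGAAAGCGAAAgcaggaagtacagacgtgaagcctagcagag
PSME1, chr14:24136094-24136213, plus strand: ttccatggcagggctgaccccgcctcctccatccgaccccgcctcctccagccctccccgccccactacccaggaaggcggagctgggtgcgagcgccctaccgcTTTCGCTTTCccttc
PSME2, chr14:24146591-24146710, minus strand: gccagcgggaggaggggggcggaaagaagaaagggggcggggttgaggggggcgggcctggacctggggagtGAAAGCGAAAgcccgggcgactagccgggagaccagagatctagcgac
PSMB9, chr6:32854032-32854151, plus strand: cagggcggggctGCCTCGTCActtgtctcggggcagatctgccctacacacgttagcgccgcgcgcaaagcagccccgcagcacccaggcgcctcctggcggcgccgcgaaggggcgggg
TAP1, chr6:32853735-32853854, minus strand: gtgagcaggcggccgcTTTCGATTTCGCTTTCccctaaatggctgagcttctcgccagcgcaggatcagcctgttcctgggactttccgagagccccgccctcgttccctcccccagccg
PSMB5, chr14:23035201-23035320, minus strand: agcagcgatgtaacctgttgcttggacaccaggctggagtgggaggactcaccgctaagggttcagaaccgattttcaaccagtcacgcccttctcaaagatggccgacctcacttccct

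The ISRE letters stood in the windows of 4 of the 5 immunoproteasome genes, of 2 of 31 constitutive members (6.45%, PSMB4 and PSMA4) and of 4.38% of 27305 genes with a window. In PSMB8 they lay across the start, at bases -4 to 6, in PSMB10 at -21 to -12, in PSME1 at 6 to 15 and in PSME2 at -28 to -19. The window of PSMB9 did not hold them. PSMB9 lies next to TAP1, which encodes a subunit of the peptide transporter and is read in the opposite direction, and the shown stretch of TAP1, between the starts of both genes, holds the ISRE letters as a pair of overlapping matches. The letters of the gamma-activated sequence, TTCNNNGAA, were found for 1 of the 5 immunoproteasome genes (PSMB8), for 6 of 31 constitutive members (19.4%) and for 9.38% of all genes with a window. The ARE letters were in 3 of the 5 (PSMB9, PSME1 and PSME2), in 10 of 31 (32.3%) and in 16.1%, respectively. A gene was counted if any of its windows held a match, and some genes had several windows. Both strands were searched, and a match describes the letters only.

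All 3 immunoproteasome genes tested were lower in vehicle-treated HCT116 than in Hkh-2, and PSMB9 and PSME1 also than in Hke3. PSMB9 differed most, at 3.64-fold between vehicle-treated HCT116 and Hke3 and 6.74-fold between vehicle-treated HCT116 and Hkh-2. In bulk RNA, fewer cells of a type and less RNA per cell cannot be told apart.

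PSMB9, which replaces PSMB6 and gives the core a different cleavage preference, was at log2 levels of 7.26, 6.79 and 7.06 in the 3 vehicle arrays and 7.26, 6.89 and 6.99 in the 3 doxycycline arrays. The Hke3 arrays were at 8.93, 8.93 and 8.84, and the Hkh-2 arrays at 9.84, 9.78 and 9.74. The 3 cell lines formed separate steps with no overlap, Hkh-2 above Hke3 above HCT116, and the HCT116 arrays spread more than those of either line. As log2 differences, vehicle-treated HCT116 was at -1.87 ± 0.12 (SE, n = 3 and 3) against Hke3, with a limma adjusted p of 5.65e-08, and at -2.75 ± 0.12 against Hkh-2, with an adjusted p of 1.21e-09.

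PSME1, the alpha subunit of PA28, was at 10.92, 11.04 and 11.01 with vehicle and at 10.83, 11.10 and 10.97 with doxycycline. Hke3 was at 11.84, 11.76 and 11.83, and Hkh-2 at 12.13, 12.17 and 12.15. The order of the groups was that of PSMB9, again with no overlap between lines. The log2 difference of vehicle-treated HCT116 was -0.82 ± 0.08 (SE, n = 3 and 3) against Hke3 (adjusted p = 2.51e-06, limma) and -1.16 ± 0.08 against Hkh-2 (adjusted p = 1.09e-07, limma), which are 1.77-fold and 2.23-fold.

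PSMB10, which replaces PSMB7, had another order. Its log2 levels were 9.10, 9.27 and 9.19 with vehicle, 9.30, 9.18 and 9.18 with doxycycline and 9.28, 9.33 and 9.41 in Hke3. In Hkh-2 they were 10.03, 10.24 and 9.96. Hkh-2 stood above all other arrays, while Hke3 lay next to HCT116. Against Hkh-2 the log2 difference of vehicle-treated HCT116 was -0.90 ± 0.09 (SE, n = 3 and 3, adjusted p = 3.36e-06, limma), or 1.86-fold. Against Hke3 it was -0.16, with a 95% interval from -0.34 to 0.03 and an adjusted p of 0.148 (limma).

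PSMB8, which replaces PSMB5, was at 4.46, 4.94 and 4.63 with vehicle, 4.87, 4.57 and 4.54 with doxycycline, 3.86, 4.41 and 4.73 in Hke3 and 4.48, 4.53 and 4.25 in Hkh-2. All 12 arrays were under the minimum of 6 and the groups overlapped, so the array gave no order for PSMB8. Its neighbours on chromosome 6 are TAP2 and TAP1.

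**Figure D1:**
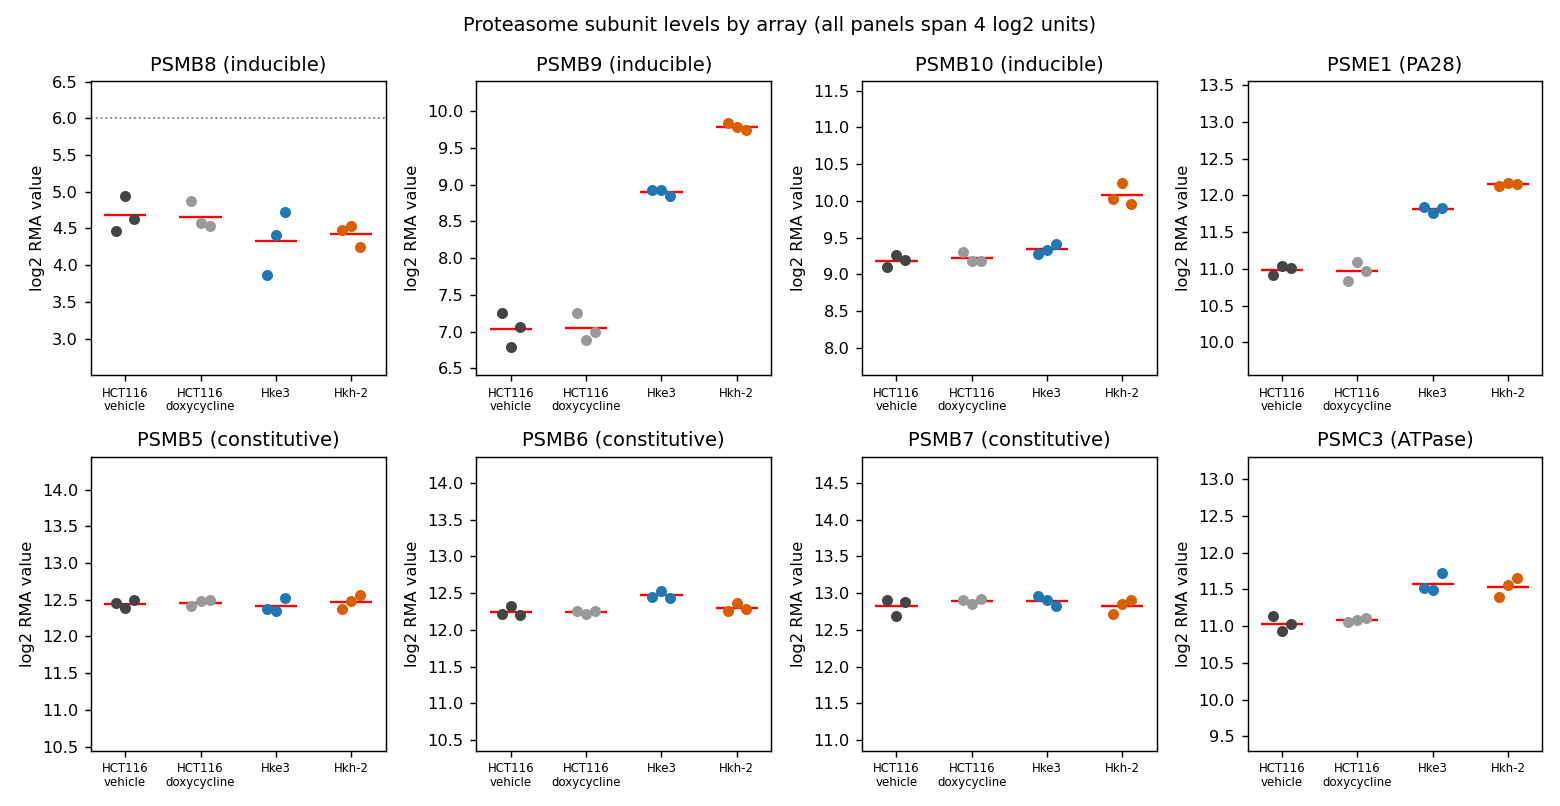
Log2 RMA value (y axis, each panel spanning the same height) of 8 proteasome genes in each array of the 4 groups (x axis), with red lines at the group means of 3 arrays. PSMB9 and PSME1 climb in steps from HCT116 over Hke3 to Hkh-2, PSMB10 is high in Hkh-2 only, PSMB8 stays under the dotted minimum of 6, and PSMB5, PSMB6 and PSMB7 stay nearly level.

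The catalytic subunits that the inducible ones replace moved little. PSMB5, the chymotrypsin-like subunit, was at log2 levels of 12.45, 12.39 and 12.49 with vehicle, 12.41, 12.48 and 12.49 with doxycycline, 12.38, 12.35 and 12.53 in Hke3 and 12.38, 12.48 and 12.56 in Hkh-2. All 4 groups overlapped, and the log2 difference of vehicle-treated HCT116 was 0.03 (95% interval -0.14 to 0.19) against Hke3 and -0.03 (-0.20 to 0.13) against Hkh-2. PSMB7, the trypsin-like subunit, was at 12.91, 12.69 and 12.88 with vehicle, 12.91, 12.85 and 12.92 with doxycycline, 12.96, 12.90 and 12.82 in Hke3 and 12.71, 12.85 and 12.90 in Hkh-2. Its differences were -0.07 (-0.24 to 0.11) and 0.01 (-0.17 to 0.18), and the groups overlapped. PSMB6, the caspase-like subunit, was at 12.22, 12.32 and 12.20 with vehicle, 12.26, 12.22 and 12.26 with doxycycline, 12.45, 12.53 and 12.43 in Hke3 and 12.26, 12.37 and 12.28 in Hkh-2. Here Hke3 stood above HCT116 with no overlap. The log2 difference of -0.22 ± 0.07 (SE, n = 3 and 3) against Hke3 passed the test (adjusted p = 0.0164, limma), and that of -0.05 against Hkh-2 did not (adjusted p = 0.588, limma). Without vehicle replicate 1, vehicle replicate 3 or Hke3 replicate 2, the call against Hke3 was lost at adjusted p = 0.0507, 0.056 and 0.0672, respectively.

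By the brightest probe set of each gene, the 32 tested constitutive members spanned 0.22 to 0.90 on the log2 scale across the 12 arrays. A span runs from the lowest to the highest array of a gene, with a median of 0.39 and PSMD3 the widest. The 3 tested immunoproteasome genes spanned 1.15 to 3.06. Some dimmer probe sets of constitutive members moved more. Vehicle-treated HCT116 was above Hkh-2 by 1.12 in 1 probe set of PSME4 and by 0.89 in 1 of PSMD11. The spans describe the brightest probe sets and were not tested against each other.

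Between vehicle-treated HCT116 and Hke3, 18 of the 35 tested members passed an adjusted p of 0.05, 3 higher and 15 lower in HCT116. Of all genes tested, 47.8% passed, 24.6% higher and 23.2% lower, so the share of members called was near the background and their split leaned to lower. The immunoproteasome gave 2 lower of 3 tested, and the constitutive members 13 lower and 3 higher of 32, with a median log2 difference of -0.14 beside 0.05 over all genes. Arrays of the groups did not overlap for 20 of the 35 members, against 49.6% of all genes. Without both arrays that stood apart, 4 members were higher and 17 lower.

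The lower members were mainly in the ATPase ring and the beta ring. All 5 measured subunits of the ATPase ring, which unfolds substrates and feeds them into the core, had negative differences, and 4 passed. PSMC3 led them, at log2 levels of 11.14, 10.93 and 11.03 with vehicle, 11.05, 11.08 and 11.11 with doxycycline, 11.52, 11.49 and 11.72 in Hke3 and 11.40, 11.56 and 11.65 in Hkh-2. Both lines stood above HCT116 with no overlap and overlapped each other. The log2 difference was -0.55 ± 0.09 (SE, n = 3 and 3) against Hke3 (adjusted p = 0.000257, limma). PSMC2 was at 12.51, 12.29 and 12.45 with vehicle, 12.53, 12.45 and 12.46 with doxycycline, 12.91, 12.92 and 12.73 in Hke3 and 12.54, 12.56 and 12.69 in Hkh-2. The Hke3 arrays stood above all the others and the Hkh-2 arrays between them and HCT116, with no overlap. Against Hke3 the log2 difference was -0.44 ± 0.08 (adjusted p = 0.000851, limma). PSMC6 (-0.32) and PSMC1 (-0.26) also passed, and PSMC1 lost its call without vehicle replicate 2 (-0.20) or Hke3 replicate 1 (-0.22). PSMC4 was called against the other line and is described there.

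In the beta ring, the structural subunits PSMB3 (-0.28), PSMB2 (-0.24) and PSMB4 (-0.22) passed, and PSMB1 was at -0.14 (adjusted p = 0.11, limma). In the alpha ring, whose gate controls entry to the core, PSMA1 passed at -0.26 (lost without vehicle replicate 2, Hke3 replicate 1 or Hke3 replicate 2, at -0.23 to -0.20) and the other 5 measured subunits lay between -0.18 and 0.03. In the lid, which removes ubiquitin, PSMD12 (-0.34) and PSMD14 (-0.33) were lower. PSMD11 is counted among the 13 through its brightest probe set, but its probe sets were called in opposite directions. None of the 3 measured non-ATPase subunits of the base, PSMD1, PSMD2 and PSMD4, passed, at differences from -0.18 to 0.11. PSMD14, the deubiquitinase of the lid, was at 12.56, 12.39 and 12.47 with vehicle, 12.53, 12.45 and 12.47 with doxycycline, 12.84, 12.84 and 12.72 in Hke3 and 12.45, 12.57 and 12.49 in Hkh-2. Hke3 stood above the 9 other arrays (log2 difference of HCT116 -0.33 ± 0.07, SE, n = 3 and 3, adjusted p = 0.00216, limma). PSMD10, also known as gankyrin and a chaperone of base assembly, was at 11.53, 11.27 and 11.51 with vehicle, 11.42, 11.55 and 11.44 with doxycycline, 11.88, 11.93 and 11.53 in Hke3 and 11.29, 11.37 and 11.35 in Hkh-2. Its Hke3 replicate 3 equalled vehicle replicate 1 to 2 decimals. The log2 difference of -0.35 ± 0.11 against Hke3 passed (adjusted p = 0.0165, limma). It lost its call without vehicle replicate 2 (-0.26), Hke3 replicate 1 (-0.30) or Hke3 replicate 2 (-0.27).

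The 3 members higher in HCT116 than in Hke3 were PSMD3, a scaffold subunit of the lid, and PSME3 and PSME4, the nuclear activators PA28 gamma and PA200. PSMD3 was at 10.55, 10.85 and 10.48 with vehicle, 10.57, 10.73 and 10.56 with doxycycline, 9.98, 9.95 and 10.56 in Hke3 and 10.45, 10.58 and 10.48 in Hkh-2. Its Hke3 replicate 3 lay among the HCT116 arrays and the other 2 Hke3 arrays well under them. PSME3 was at 10.80, 11.17 and 10.70 with vehicle, 10.79, 10.78 and 10.70 with doxycycline, 10.31, 10.34 and 10.72 in Hke3 and 10.84, 11.03 and 10.94 in Hkh-2, with the same Hke3 array apart and the highest vehicle value in replicate 2. The log2 differences were 0.46 ± 0.15 for PSMD3 and 0.43 ± 0.13 for PSME3 (SE, n = 3 and 3, adjusted p = 0.0195 and 0.0136, limma). Without both arrays that stood apart they were 0.55 and 0.42 and passed. PSME4 was at 10.60, 10.35 and 10.56 with vehicle, 10.63, 10.63 and 10.59 with doxycycline, 10.18, 10.14 and 10.41 in Hke3 and 10.05, 10.18 and 10.30 in Hkh-2. The lowest vehicle array lay within the range of Hke3 and above that of Hkh-2, and the differences of 0.26 ± 0.10 and 0.33 ± 0.10 passed (adjusted p = 0.039 and 0.0176, limma). Leaving out Hke3 replicate 1 or Hke3 replicate 2 took all 3 calls against Hke3 away (0.21 to 0.38), leaving out vehicle replicate 2 took away PSMD3 (0.35) and PSME3 (0.29), leaving out vehicle replicate 1 or 3 took away PSME4 (0.21 and 0.23), and PSME4 kept its call against Hke3 under 13 of 24 alternatives.

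**Figure D2:**
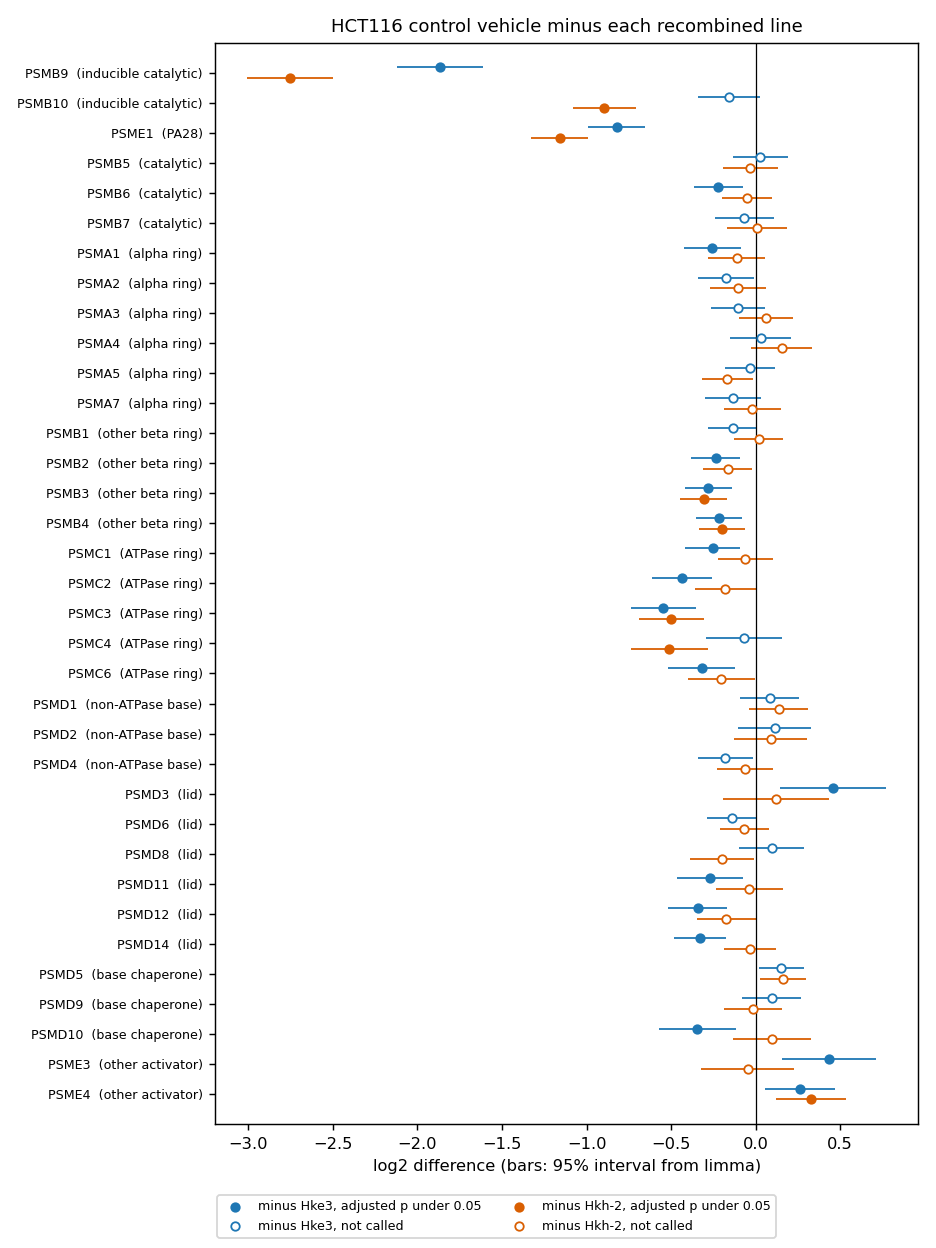
Log2 difference of vehicle-treated HCT116 minus Hke3 (blue) and minus Hkh-2 (orange) for the 35 tested members by role, with 95% intervals from limma over 3 arrays a group and filled points at an adjusted p under 0.05. PSMB9, PSMB10 and PSME1 lie far to the left against Hkh-2, between -2.75 and -0.90, while all constitutive members lie between -0.55 and 0.46.

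Between vehicle-treated HCT116 and Hkh-2, 8 of the 35 tested members passed, 1 higher and 7 lower in HCT116, while 36% of all genes passed, 14.3% higher and 21.7% lower. All 3 tested immunoproteasome genes were lower, with a median log2 difference of -1.16. Of the 32 constitutive members 1 was higher and 4 were lower, with a median of -0.05 beside -0.02 over all genes, so the share of constitutive members called was under that of all genes. Arrays of the groups did not overlap for 18 of the 35 members, against 49% of all genes. Without both arrays that stood apart, 3 members were higher and 10 lower.

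The 4 lower constitutive members were PSMC4, PSMC3, PSMB3 and PSMB4. PSMC4, another ATPase, was at 11.09, 11.19 and 11.01 with vehicle, 10.96, 10.97 and 11.01 with doxycycline, 11.04, 11.00 and 11.45 in Hke3 and 11.56, 11.63 and 11.63 in Hkh-2. Hkh-2 stood above all other arrays, and Hke3 replicate 3 was the nearest to it. The log2 difference was -0.51 ± 0.10 (SE, n = 3 and 3) against Hkh-2 (adjusted p = 0.00191, limma) and -0.07 (95% interval -0.29 to 0.16) against Hke3. PSMC3 was at -0.50 ± 0.09 against Hkh-2 (adjusted p = 0.000656, limma). PSMB3 was at 12.52, 12.41 and 12.47 with vehicle, 12.53, 12.52 and 12.46 with doxycycline, 12.76, 12.73 and 12.75 in Hke3 and 12.75, 12.75 and 12.82 in Hkh-2. Both lines stood above HCT116 with no overlap, at log2 differences of -0.28 ± 0.06 and -0.31 ± 0.06 (adjusted p = 0.00284 and 0.00201, limma). PSMB4 passed at -0.20 (adjusted p = 0.0264, limma) and lost its call without vehicle replicate 1 or 2 or Hkh-2 replicate 2 or 3, at -0.18 to -0.20. The higher member was PSME4, which lost its call without vehicle replicate 1 or 3 or Hkh-2 replicate 1, at 0.26 to 0.30.

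Both comparisons share the vehicle arrays. PSMB9, PSME1, PSMB3, PSMB4 and PSMC3 passed as lower in HCT116 against either line (14.3% of the members tested, against 12.6% of all genes). PSME4 was higher than in both (2.86%, against 9.04% of all genes). No member was called in opposite directions, against 2.32% of all genes. A further 14 of the 35 members passed against 1 line only and 15 against neither, beside 4627 and 5152 of all 12852 genes.

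The groups of the 2 recombined lines did not overlap for 19 of the 35 members, against 48% of all genes. Of the 35, 9 of the 35 passed the test, 3 higher and 6 lower in Hke3, while 39.8% of all genes passed, 16.3% higher and 23.5% lower. All 3 tested immunoproteasome genes were lower in Hke3 than in Hkh-2. The log2 differences were -0.89 ± 0.12 for PSMB9, -0.74 ± 0.09 for PSMB10 and -0.34 ± 0.08 for PSME1 (SE, n = 3 and 3, adjusted p = 7.06e-05, 2.33e-05 and 0.00386, limma). In folds these were 1.85, 1.67 and 1.27. So the lines without the oncogenic allele differed from each other in these genes by more than the spread of their arrays. For PSMB10 the gap between the lines made up most of the gap between HCT116 and Hkh-2.

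Of the 32 constitutive members, 3 were higher and 3 lower in Hke3, with a median log2 difference of 0.07 beside -0.06 over all genes. The higher ones were PSMD10 (0.44 ± 0.11), PSMD14 (0.30 ± 0.07) and PSMC2 (0.26 ± 0.08). The lower ones were PSME3 (-0.48 ± 0.13), PSMC4 (-0.44 ± 0.10) and PSMD8 (-0.30 ± 0.09, all SE, n = 3 and 3). PSMD8, a lid subunit, was at 11.44, 11.50 and 11.44 with vehicle, 11.52, 11.48 and 11.47 with doxycycline, 11.32, 11.22 and 11.56 in Hke3 and 11.56, 11.71 and 11.72 in Hkh-2, where Hke3 replicate 3 equalled the lowest Hkh-2 array. Its call (adjusted p = 0.0172, limma) was lost without Hke3 replicate 1 or 2 or Hkh-2 replicate 2 or 3, and that of PSMC2 (adjusted p = 0.0255, limma) without Hke3 replicate 1 or 2 or Hkh-2 replicate 1 or 2. Without both arrays that stood apart, 11 members were higher and 8 lower, among the latter PSMD3 at -0.54 (adjusted p = 6.15e-05, limma). With all 12 arrays PSMD3 was at -0.34 and did not pass (adjusted p = 0.0815, limma), and it passed under 2 of 23 alternatives. After cyclic loess between arrays, 9 members were higher and 6 lower in Hke3.

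No member passed the test between doxycycline and vehicle. Of all 12852 genes, 0% passed and 127 (0.988%) had an unadjusted p under 0.05, among them 1 member. That was PSMD4, a ubiquitin receptor of the base, at 11.78, 11.55 and 11.66 with vehicle and 11.81, 11.87 and 11.83 with doxycycline (log2 difference 0.17, unadjusted p = 0.0381 and adjusted p = 1, limma). With the replicate number as a block, no member had an unadjusted p under 0.05. The 95% intervals of the 35 members lay between -0.41 and 0.34 on the log2 scale, and those of PSMB9, PSMB10 and PSME1 between -0.24 and 0.27. Arrays did not overlap for PSMC4, PSMD4 and PSMD5, 3 of 35, against 4.37% of all genes.

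**Figure D3:**
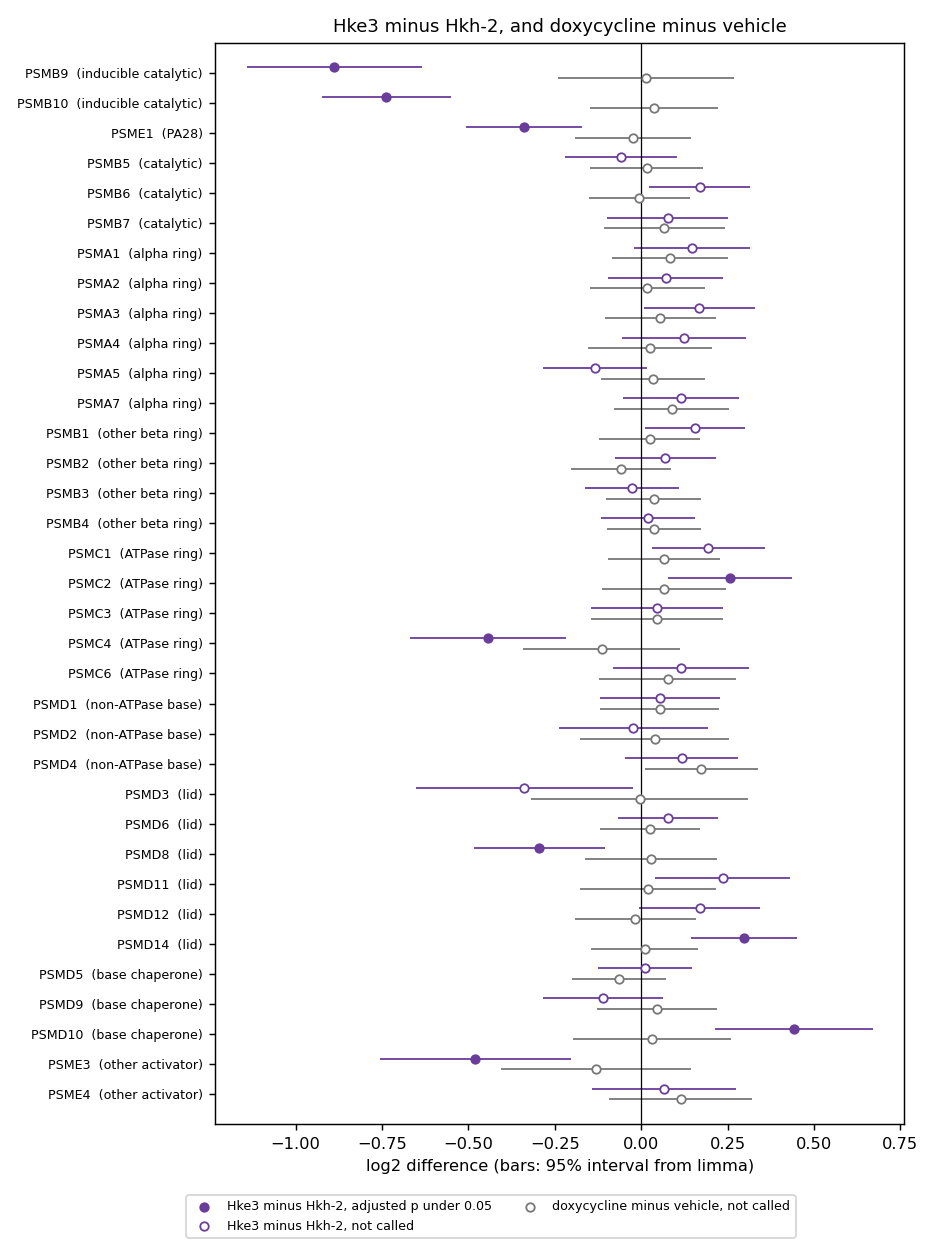
Log2 difference of Hke3 minus Hkh-2 (purple) and of doxycycline minus vehicle in HCT116 control cells (grey) for the 35 tested members, with 95% intervals from limma over 3 arrays a group and filled points at an adjusted p under 0.05. PSMB9, PSMB10 and PSME1 lie left of 0 between the lines, at -0.89 to -0.34, and every grey point is open and lies between -0.13 and 0.17.

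Several members had more than 1 probe set, and these did not always move together. Of the 16 members with several tested probe sets, signs differed between probe sets of the same gene for 6 against Hke3, for 10 against Hkh-2 and for 5 between the lines. Only PSMD11, a lid subunit, had probe sets called in opposite directions. Against Hke3 its brightest probe set was lower in HCT116 at a log2 difference of -0.27, and its other one was higher at 0.65, as it was against Hkh-2 at 0.89. No direction is therefore given for PSMD11. The second probe set of PSMD1, a scaffold of the base, was higher in HCT116 by 0.47 and 0.66 against Hke3 and Hkh-2, while its brightest, at 0.08 and 0.14, was not called. Of the dimmer probe sets of PSMC2, one was called lower in HCT116 than in Hke3 (-0.40), as the brightest was, and the other was higher than in Hkh-2 by 0.33. That of PSMD10 was higher than in Hkh-2 by 0.37 and was not called against Hke3, at -0.17. Of the 3 dimmer ones of PSME3, 1 was higher than in Hke3, at 0.30, and the others were at 0.03 and 0.05. For PSME4, one of the dimmer probe sets was higher than in both lines, by 0.62 and 1.12, and the other was at -0.10 and 0.42, of which the latter passed. The 2 dimmer probe sets of PSMB2 were at -0.11 and 0.34 against Hke3, and neither passed. Those of PSMB4 were at -0.24 and -0.05 against Hke3 and at 0.07 and -0.17 against Hkh-2, and none of these passed, so both PSMB4 calls rest on its brightest probe set. The dimmer one of PSMD12 was not called against Hke3, at -0.07. Between the lines, both dimmer probe sets of PSME4 were higher in Hke3 than in Hkh-2, at 0.50 and 0.52, while its brightest was not called, at 0.065. For PSMA1, PSMA7 and PSMB4, 1 dimmer probe set each was higher in Hke3, at 0.27, 0.30 and 0.31, with the brightest not called. For PSME3, 1 dimmer probe set was lower in Hke3, at -0.24, as its brightest was. PSMB9, PSMB10 and PSME1 had 1 tested probe set each, so their differences could not be set against a second one.

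**Figure D4:**
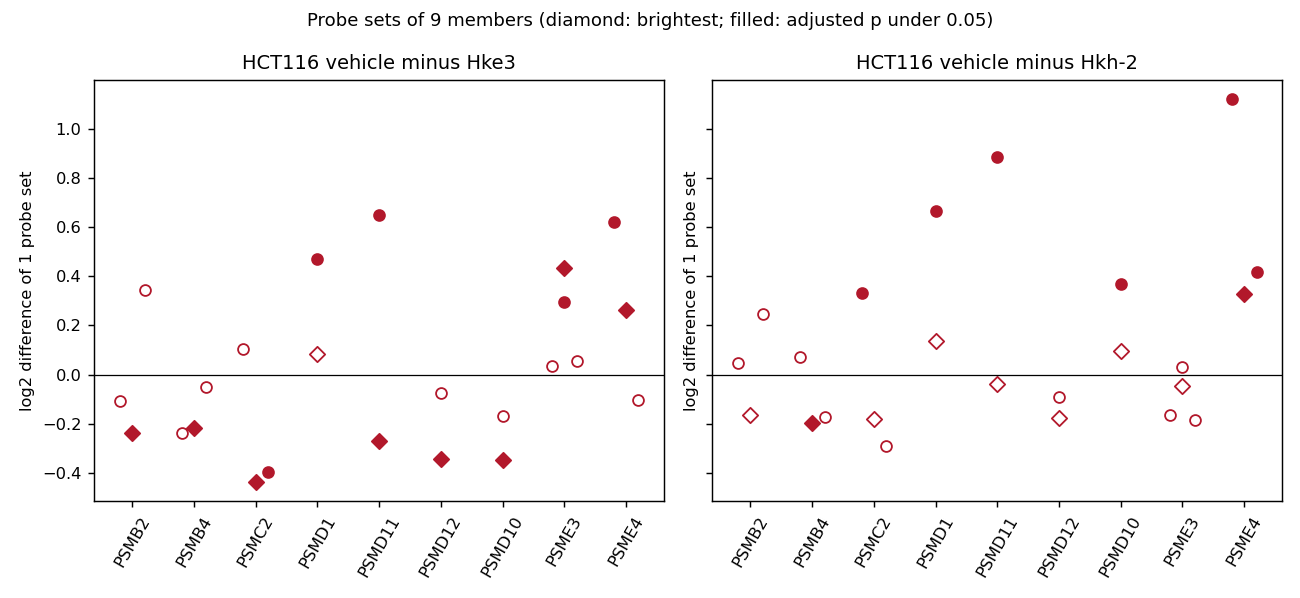
Log2 difference (y axis) of every tested probe set of 9 members (x axis) for vehicle-treated HCT116 minus Hke3 (left) and minus Hkh-2 (right), with a diamond for the brightest probe set of a gene, circles for the others and filled symbols at an adjusted p under 0.05 over all probe sets. PSMD11 has a filled symbol on either side of 0 against Hke3, at -0.27 and 0.65.

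The chaperones that assemble the 20S core differed between the lines. PSMG1 to PSMG4 build the alpha ring, and POMP, the maturation factor, guides the beta ring. Against Hke3 all 4 PSMG genes were higher in HCT116, by 0.30 for PSMG1, 0.31 for PSMG2, 0.64 for PSMG3 and 0.31 for PSMG4 on the log2 scale, and POMP was lower at -0.23, while 47.8% of all genes were called, 24.6% higher. Against Hkh-2 only PSMG1 passed, and it was lower, at -0.22. In Hke3, replicate 3 of PSMG3 was at 10.31, near the 10.43 to 10.66 of the vehicle arrays, and the other 2 arrays were at 9.63 and 9.69. For PSMG2 that replicate was at 11.72, within the 11.67 to 11.97 of the vehicle arrays, beside 11.38 and 11.35. For PSMG4 it was at 10.44, near the vehicle arrays at 10.49 to 10.57, beside 10.12 and 10.10. Between the lines, 4 of the 5 chaperones were lower in Hke3 than in Hkh-2 and none was higher, while 39.8% of all genes were called, 23.5% lower.

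Among the 12 measured ubiquitin receptors, deubiquitinases and partners, the test called 1 higher (VCP, the segregase that extracts ubiquitin-tagged proteins, at 0.22) and 4 lower in HCT116 against Hke3. Against Hkh-2 it called 2 higher (UCHL5 and UBE3C, a ubiquitin ligase, the latter at 0.34) and 5 lower. These were 41.7% and 58.3% of the 12, beside 47.8% and 36% of all genes. ECPAS, an adaptor that holds core and cap together, had the widest gaps, at log2 levels of 9.43, 9.07 and 9.40 with vehicle, 10.26, 10.46 and 10.58 in Hke3 and 10.34, 10.39 and 10.36 in Hkh-2. HCT116 lay under both lines with no overlap, at log2 differences of -1.13 ± 0.11 and -1.07 ± 0.11 (SE, n = 3 and 3, adjusted p = 2.18e-06 and 4.62e-06, limma). TXNL1, a thioredoxin-like protein of the cap, was lower at -0.38 and -0.39, and SEM1, the small lid subunit, at -0.25 and -0.23. UCHL5, a deubiquitinase of the cap, was at -0.20 against Hke3 and 0.56 against Hkh-2, and passed in both directions. PSMF1, an inhibitor of the core, and RAD23B, a shuttle for ubiquitin-tagged proteins, passed only against Hkh-2, at -0.52 and -0.62.

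NFE2L1, the factor known to raise proteasome genes when the proteasome is impaired, was not called against either line, at -0.02 and 0.07. NGLY1, which processes it, was lower in HCT116 at -0.31 and -0.45. NFE2L2, a related factor of the antioxidant response, was lower at -0.75 and -1.15 (adjusted p = 1.1e-05 and 2.29e-07, limma).

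Of the 7 tested regulators of the inducible subunits, 3 were lower in HCT116 than in Hke3, 3 were lower than in Hkh-2 and none was higher. That was 42.9% in each comparison, beside 47.8% and 36% of all genes called. IRF1, a factor that induces the immunoproteasome genes, was at 7.14, 7.69 and 7.11 with vehicle, 7.08, 7.41 and 7.43 with doxycycline, 7.50, 7.41 and 7.58 in Hke3 and 8.71, 8.86 and 8.71 in Hkh-2. Hkh-2 alone stood apart, at log2 differences of HCT116 of -1.45 ± 0.14 against Hkh-2 (SE, n = 3 and 3, adjusted p = 4.35e-06, limma) and -0.18 ± 0.14 against Hke3 (adjusted p = 0.313, limma). IRF9, the DNA-binding part of the type I interferon complex, was lower than in both lines, at -1.20 and -1.80. JAK1, the kinase of interferon receptors, was also lower than in both, at -1.21 and -0.81. IFNGR1, a chain of the interferon gamma receptor, was lower than in Hke3 only, at -0.95, and lay at 0.07 against Hkh-2. NLRC5, a transactivator of MHC class I genes, was at 0.06 and -0.03 and did not pass.

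Of the genes of peptide loading, 7 had a mean of at least 6 in every group, of which 3 were lower in HCT116 than in Hke3, 6 were lower than in Hkh-2 and none was higher. Of all genes, 23.2% and 21.7% were lower, respectively. TAP1 was at 8.91, 9.05 and 8.92 with vehicle, 9.07, 8.98 and 9.26 in Hke3 and 9.77, 9.81 and 9.62 in Hkh-2. Like PSMB10 and unlike its neighbour PSMB9, TAP1 passed only against Hkh-2, at -0.77 (adjusted p = 1.8e-05, limma), with -0.14 (adjusted p = 0.206, limma) against Hke3. TAPBP, which bridges MHC class I to the transporter, was lower at -0.81 and -0.96, B2M, the light chain of MHC class I, at -0.64 and -0.63, and TAP2 at -0.23 and -0.44. HLA-B and HLA-C passed only against Hkh-2, at -0.92 and -0.95. ERAP2, a peptide-trimming enzyme, had group means of 3.86 with vehicle, 3.91 with doxycycline, 5.24 in Hke3 and 6.02 in Hkh-2. It reached the minimum only in Hkh-2 and is left out of these counts.

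**Figure D5:**
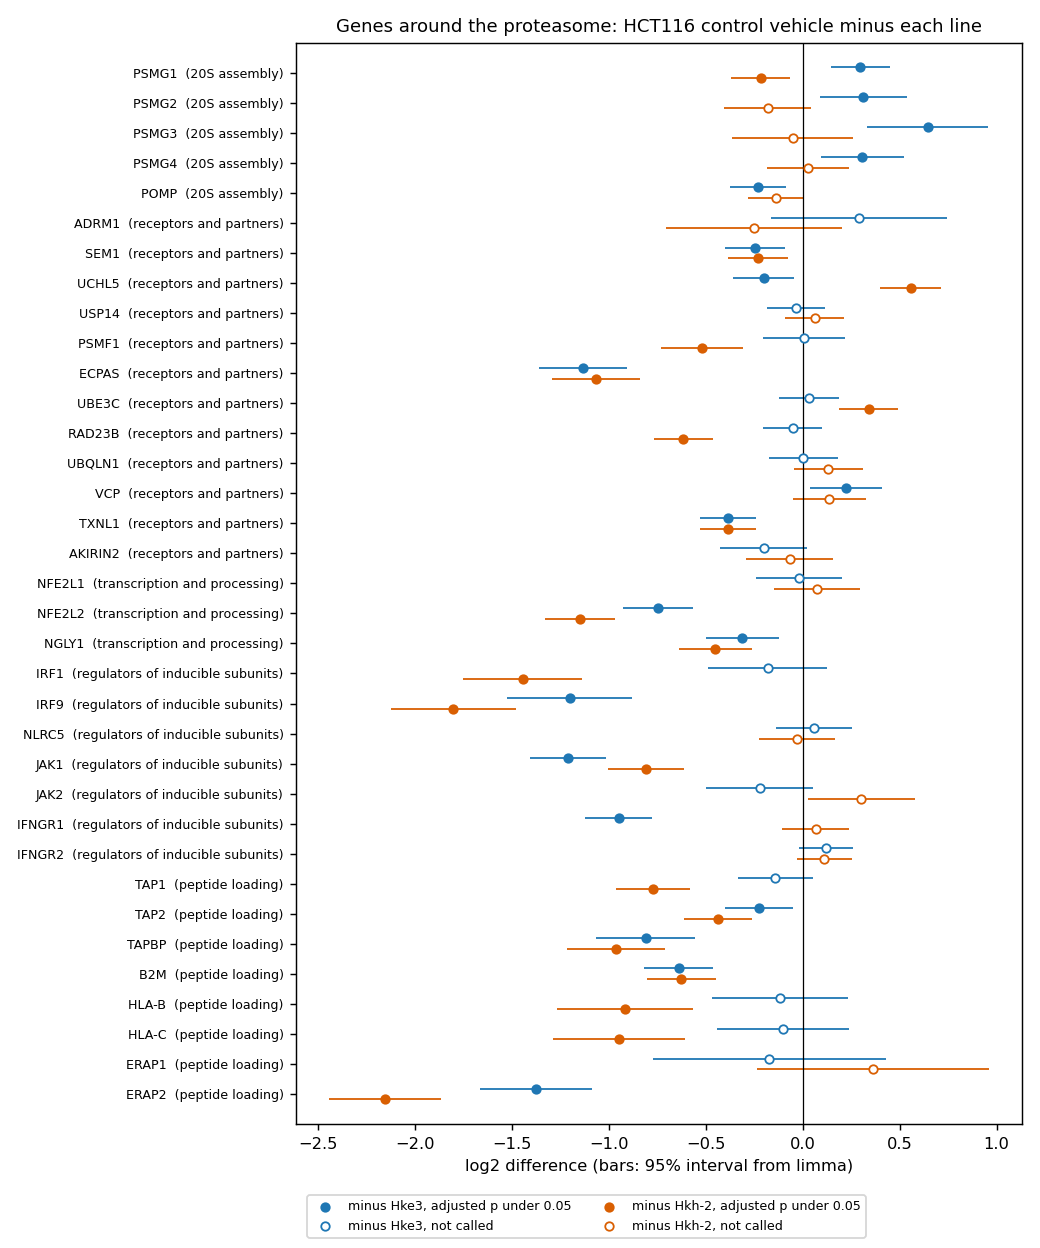
Log2 difference of vehicle-treated HCT116 minus Hke3 (blue) and minus Hkh-2 (orange) for 35 tested genes around the proteasome by role, with 95% intervals from limma over 3 arrays a group and filled points at an adjusted p under 0.05. ECPAS lies near -1.13 and -1.07 against both lines, and IRF1 and TAP1 are filled only against Hkh-2, at -1.45 and -0.77. ERAP2 reached a mean of 6 in Hkh-2 only, so its points are no measure of size.

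The labelled cell type was checked through marker genes. The epithelial markers EPCAM, at group means of 13.09 to 13.25, and KRT18, at 14.01 to 14.54, were high in every group, while the colon markers CDX2 and VIL1 lay between 6.45 and 6.89. Averaged over 4 leukocyte markers, a cell type in which the inducible subunits are constitutive, array means lay between 5.12 and 5.43 in all 4 groups, and PTPRC, the defining one, had group means of 3.80 to 3.94. Neither of the 2 leukocyte markers tested, CD3E and ITGAM, passed in any comparison. The fibroblast marker COL3A1 was at a group mean of 6.73 in Hkh-2 and at 4.45 to 4.49 in the other groups, while COL1A1 passed in no comparison. Array means over 3 fibroblast markers lay between 6.59 and 6.85 in Hkh-2 and between 5.82 and 6.15 in the other groups. Those over 7 colon epithelial markers were 10.29 to 10.34 in HCT116, reached 10.49 to 10.62 in Hke3 and were highest in Hkh-2 at 10.87 to 10.98. CLDN4, at group means of 7.68 with vehicle, 9.20 in Hke3 and 9.75 in Hkh-2, and CDH1, at 11.07, 11.90 and 12.24, took that order, while KRT8, KRT18, CDX2 and VIL1 had their lowest mean in Hke3. Array means over 3 endothelial markers were 5.64 to 5.78, 5.23 to 5.34 and 5.14 to 5.46. Their part in the immunoproteasome differences was not tested. PSMA8, the testis-specific alpha subunit, had group means of 3.27 to 3.55.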

How the data were processed

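RNA of HCT116 control cells with vehicle or doxycycline, Hke3 and Hkh-2 was measured on 3 Affymetrix arrays a group. The values as deposited by the authors are on a log2 scale, 1 for each of 54675 probe sets in every array, and come from RMA per the submitters' processing notes, with the version and chip definition not given in the sources used here. RMA summarises the probes of a set and forces the same distribution on all arrays, so a shift of all genes cannot be seen.

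From these values, a single limma model (limma 3.58.1 under R 4.3.3, lmFit and eBayes) with 4 group means was fitted to the 12 arrays, with 1 probe set a gene (highest mean) and the Benjamini-Hochberg adjustment over the 12852 genes of 19775 with a mean of at least 6 in at least 1 group. Symbols came from the platform annotation, updated by gene ID through RefSeq for 41043 of 41097 single-gene probe sets, and 1801 probe sets with several symbols and 11777 with none were left out. A second fit took the 23516 single-gene probe sets that passed the same minimum. Values in every array are given for the immunoproteasome genes, the catalytic subunits they replace and the 3 largest called differences of other members in each direction and comparison, with a few genes of the pathway chosen after their values were seen. The procedure was tested on simulated data. The members and lists were chosen with earlier results of these data known. Alternatives covered probe set choice, filters, normalization, prior, pairing and each array left out.

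Vehicle and doxycycline arrays with the same number deviated together (r = 0.228, 0.212 and 0.453 across genes). The main fit used no pairing, and the replicate number entered only an alternative fit, as a block over all 12 arrays. The number of arrays limits the precision, and the smallest two-sided p of an exact test between 2 groups of 3 is 0.1. Values of the gene disrupted in Hke3 and Hkh-2 are not reported here.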

Additional observations from a re-analysis of the deposited data

Results flagged for a closer look

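Of the 35 tested genes around the proteasome, 2 were called in opposite directions against the 2 recombined lines, as were 2.32% of all genes tested. Both were picked for these calls, so their difference between the lines is a description and no separate support. UCHL5 was lower in vehicle-treated HCT116 than in Hke3 and higher than in Hkh-2, and Hke3 minus Hkh-2 was 0.76 on the log2 scale. PSMG1 went the other way round, higher in HCT116 than in Hke3 and lower than in Hkh-2, with Hke3 minus Hkh-2 at -0.51.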

How the results depend on the processing

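Under all 24 alternatives PSMB9 and PSME1 were lower in vehicle-treated HCT116 than in both lines, at log2 differences of -1.98 to -1.74 and -0.85 to -0.79 against Hke3 and of -2.87 to -2.63 and -1.19 to -1.12 against Hkh-2, and PSMB10 was lower than in Hkh-2 (-0.95 to -0.81) and passed against Hke3 under none. Counts of constitutive members moved more. Of members higher than in Hkh-2 (1), the count was 3 with the mean of all probe sets, 4 without _x_at and _s_at probe sets, 2 with a group mean of at least 8, 2 after cyclic loess, 2 with values under 6 set to 6 and 3 without both arrays that stood apart. Of members lower than in Hkh-2 (4), it was 8 with vehicle and doxycycline arrays pooled and 7 without both arrays. Of members lower than in Hke3 (13), it was 5 without _x_at and _s_at probe sets and 5 with the compared groups alone, which also left 0 higher (3). Over all members, immunoproteasome genes included, the count lower than in Hke3 (15) was 18 with array medians subtracted and 19 with a trended robust prior. Constitutive members higher in Hke3 than in Hkh-2 (3) numbered 9 with the mean of probe sets. They numbered 6 with a group mean of at least 8, 9 after cyclic loess, 8 with a trended robust prior and 11 without both arrays. Constitutive members lower in Hke3 than in Hkh-2 (3) numbered 5 without both arrays. Leaving out 1 array gave 0 to 5 higher and 9 to 15 lower than in Hke3, 0 to 2 higher and 3 to 5 lower than in Hkh-2, and 2 to 10 higher and 2 to 4 lower in Hke3 than in Hkh-2, the highest counts without Hke3 replicate 3, and the lowest against Hke3 without Hke3 replicate 1 or 2 (0 and 9). It left 2 and 3 immunoproteasome genes lower than in Hke3 and Hkh-2 throughout. Directions turned with the probe set. PSMB2 against Hke3 was at 0.016 with the mean of probe sets and 0.34 without _x_at and _s_at probe sets, PSMD11 at 0.19 and 0.65 against Hke3 and 0.42 and 0.89 against Hkh-2, and PSMC2 without those probe sets at 0.10 and 0.33. The cause was not tested. With the replicate block, the counts were 3 higher and 15 lower, 1 and 7, 3 and 6, and 0 with doxycycline, as without it. The block also covered Hke3 and Hkh-2. Same-numbered arrays of vehicle-treated HCT116 and Hke3 were at r = 0.355, -0.578 and -0.58 across genes, and those of vehicle-treated HCT116 and Hkh-2 at -0.046, 0.422 and 0.337. Same-numbered arrays were the best match for 6 of the 12 arrays.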
